A study of Mus musculus with 28 samples.

Results

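Across the livers, liver cell fractions and liver cultures of a mouse array series, the genes followed here were the enzymes that turn cholesterol into bile acids and join those to amino acids. They were chosen by name: Cyp7a1, Cyp7b1, Cyp8b1, Cyp27a1, Cyp39a1, Baat, Hsd3b7, Akr1d1 and Amacr, or 9 of the 28095 gene names on the array, carried by 12 of its 41174 probes. All 9 were bright enough to be among the 21331 genes tested. The series covered 28 samples in 13 groups, all from C57BL/6 mice, and asked how liver organoids compare with the liver they derive from and with unrelated tissues. Each sample was labelled with the dye Cy3 and hybridised beside a common mouse reference RNA, always in Cy5, so a level here is log2 of sample over reference for 1 probe, and levels of different probes are not compared. A spot was counted as detected where Cy3 was well above its background.

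Wildtype mice gave adult liver (2 arrays), pancreas (2), muscle (3), white adipose (3) and brown adipose (3). A further set gave whole liver tissue (2), the hepatocyte fraction of dissociated liver (2), duct cells sorted with the antibody Mic1-1c3 (2), and cells sorted for Lgr5 (2) from mice labelled as given the liver toxin CCl4 for 6 days. Livers labelled CCl4 day 3 (2) and day 13 (2) completed the tissues; neither a dose nor a vehicle control for CCl4 is given in the labels. Organoids grown from single Lgr5 cells were kept in expansion medium (EM, 2 arrays) or moved to differentiation medium (DM, 1 array with no replicate). The labels call the arrays biological replicates without saying that each came from a separate animal or culture, and give no age or sex. The p-values therefore measure the spread between these arrays, which number at most 3 a group. That spread is pooled for each gene over all 13 groups, including those where the gene was not detected. It can thus be smaller than the spread among livers. For Cyp8b1 the standard deviation was 1.48 in hepatocytes and 1.13 in whole liver, beside 0.04 in muscle, where it was not detected.

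Several arrays stood apart. The Y-linked gene Ddx3y was detected on the adult liver, hepatocyte and CCl4 day 3 arrays and on whole liver array 1, but not on whole liver array 2 or on either CCl4 day 13 array, where Xist levels were 2.26 to 2.53. The female-biased liver gene Hao2 was at 6.91 on whole liver array 2. Between 17.7% (pancreas array 1) and 69.1% of probes were detected per array. The DM array stood at 30.8%, EM array 2 at 31.4% and the Lgr5-sorted arrays at 21.5% and 18.5%. On the Lgr5-sorted arrays 9 and 8 of 10 macrophage markers but only 4 of 12 bile duct markers were detected. Krt19, Epcam and Sox9 were not detected there, and the replicates correlated at 0.563. The sorted duct arrays detected 12 of 12 bile duct markers. Muscle markers averaged 2.97 on CCl4 day 13 array 1 and 0.05 on array 2, and reached 4.11 in white and 4.03 in brown adipose.

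Bile acids are made in hepatocytes from cholesterol, and they carry fat through the gut and cholesterol out of the body. In the classic route Cyp7a1 adds the hydroxyl group that commits cholesterol to the pathway, and Cyp8b1 decides how much cholic acid is formed. In the alternative route Cyp27a1 oxidises the side chain first and Cyp7b1 hydroxylates the resulting oxysterol, while Cyp39a1 hydroxylates another oxysterol. Hsd3b7 and Akr1d1 then remodel the steroid rings, Amacr turns the side chain into the form that peroxisomes can shorten, and Baat joins the finished acid to taurine or glycine. Bile acids repress Cyp7a1 and Cyp8b1 through the nuclear receptors Nr1h4 (FXR) and Nr0b2 (SHP), against activation by Hnf4a and Nr5a2.

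RefSeq promoters (build GRCm38.p6) matched 4 of the 9 genes, Cyp8b1, Cyp27a1, Hsd3b7 and Akr1d1. The 250 bases before the start of Cyp8b1 and Akr1d1 are shown because the group means of these genes differed most among the liver and hepatocyte groups. Capitals mark matches to the motifs searched on either strand. Cyp8b1 lies at chr9:121916306-121916555 (minus strand) and Akr1d1 at chr6:37529923-37530172 (plus strand).
Cyp8b1: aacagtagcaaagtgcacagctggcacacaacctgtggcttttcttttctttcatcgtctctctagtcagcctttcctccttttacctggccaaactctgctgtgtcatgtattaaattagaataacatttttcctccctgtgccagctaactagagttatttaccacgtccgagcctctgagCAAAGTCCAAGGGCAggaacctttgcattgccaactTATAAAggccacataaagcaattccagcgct
Akr1d1: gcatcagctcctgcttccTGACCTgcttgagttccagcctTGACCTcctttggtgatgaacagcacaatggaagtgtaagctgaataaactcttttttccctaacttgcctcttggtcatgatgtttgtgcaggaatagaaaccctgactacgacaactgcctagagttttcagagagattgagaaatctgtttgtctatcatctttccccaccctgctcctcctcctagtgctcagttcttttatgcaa
In Cyp8b1, CAAAGTCCA, an Hnf4a site, lay at bases -67 to -59 from the start and overlapped CAAGGNCA, a site of the Nr5a2 type, at -60 to -53. The first motif occurred in 0.384% and the second in 5.53% of 32851 promoter windows of the same length. TATAAA followed at -31 to -26, as in 12.4% of windows. Akr1d1 held AGGTCA, the core that nuclear receptors bind, on the other strand at -232 to -227 and -210 to -205, a motif in 14.0% of windows. Cyp27a1 and Hsd3b7 each held a GC box, GGGCGG, found in 32.7% of windows. The Hnf1 palindrome motif, in 0.00913% of windows, had no match in the 4 promoters. These matches are descriptions of the letters and show no binding.

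The enzymes were detected on the 10 liver and hepatocyte arrays almost without gaps, while detection elsewhere differed from gene to gene. Cyp7a1 was detected on 10 of these 10 arrays and on 0 of the other 18, Cyp8b1 and Akr1d1 on 9 and 0, and Baat on 10 and 2. Cyp27a1 was detected on 6, Cyp7b1 on 12, Cyp39a1 on 16, Amacr on 17 and Hsd3b7 on 18 of the other arrays. For 7 genes, each on its brighter or only probe, every liver or hepatocyte array lay above every other array. The share of all genes that did so is not given here. The exceptions among the enzymes were Cyp7b1, where a duct array reached liver levels, and Cyp39a1, which was highest in pancreas. On the second Cyp7a1 probe the ranges overlapped, with the lowest liver or hepatocyte array at 0.54 and the highest other array at 0.84.

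**Figure D1:**
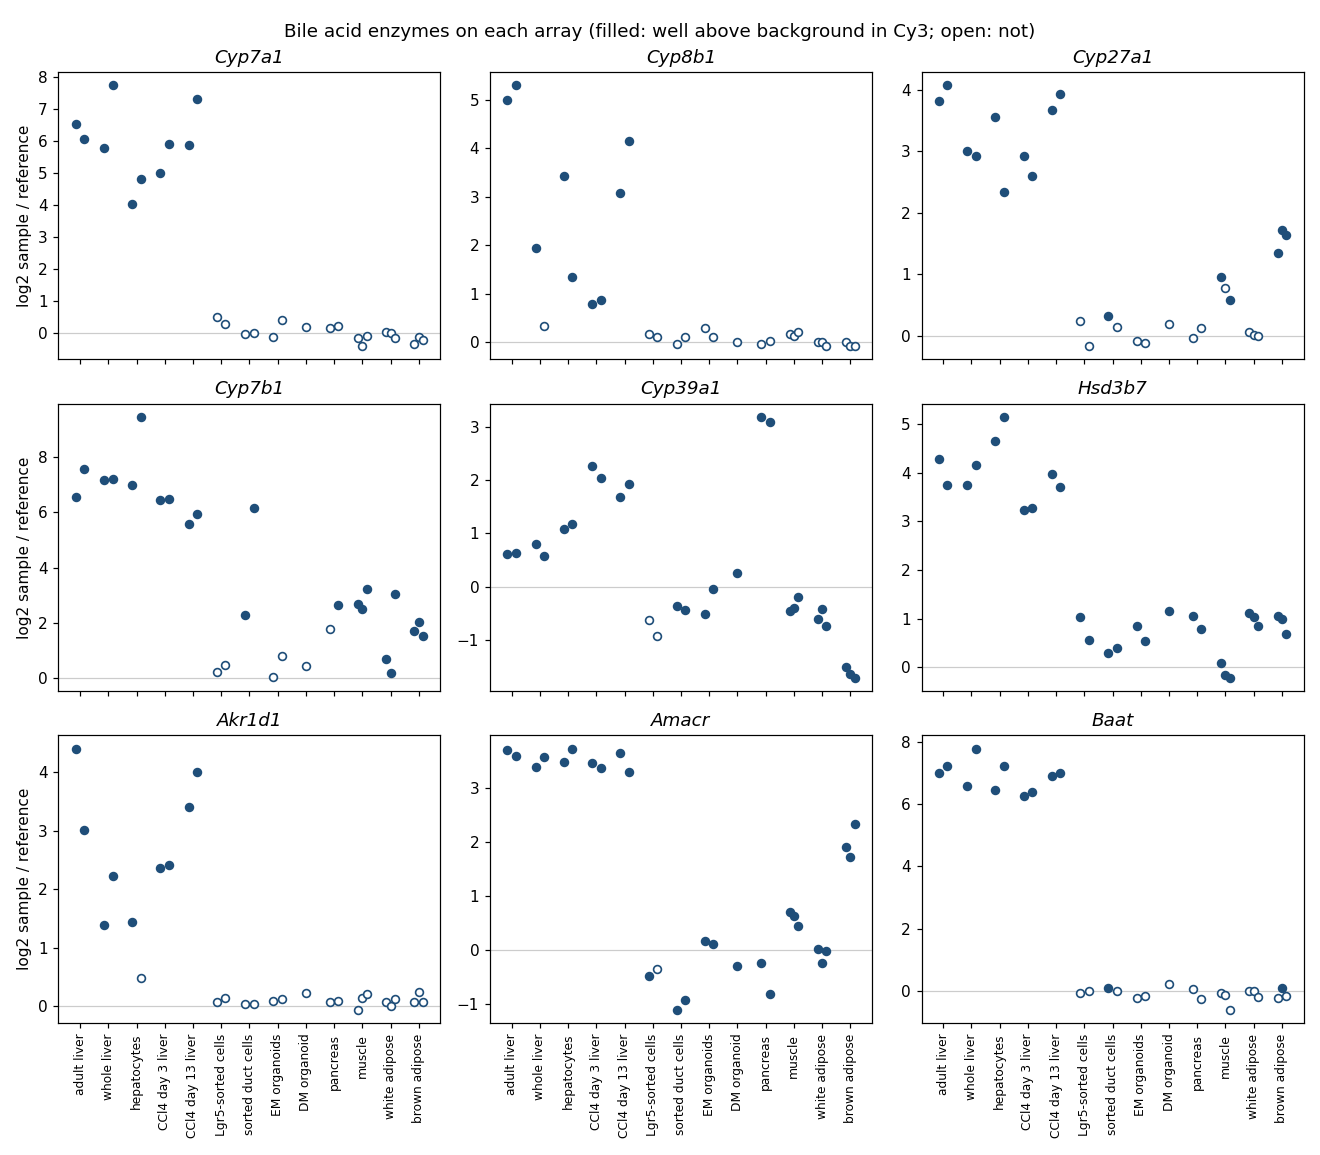
Log2 level (sample over reference) of each enzyme on every array, by group. Filled points were well above background in Cy3 and open points were not; liver and hepatocyte arrays stand above the rest for all genes but Cyp39a1, which peaks in pancreas, and Cyp7b1, where sorted duct array 2 reaches 6.16.

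Cyp7a1, the committing enzyme of the classic route, stood at 6.51 and 6.05 in adult liver, 4.01 and 4.81 in hepatocytes, 5.76 and 7.74 in whole liver, 4.99 and 5.89 at CCl4 day 3 and 5.85 and 7.31 at day 13. Its probe lies on mm9 chromosome 4, bases 6193456 to 6193515. Group means ran from whole liver through day 13, adult liver and day 3 down to hepatocytes. The top 3 groups overlapped, while hepatocytes lay below all of them. On the other 18 arrays its level was between -0.43 and 0.5 and never above background.

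Cyp8b1, which sets the share of cholic acid, was the most variable enzyme among livers. Its levels were 5.0 and 5.31 in adult liver, 3.43 and 1.34 in hepatocytes, 1.94 and 0.35 in whole liver (the latter not detected), 0.79 and 0.87 at CCl4 day 3 and 3.09 and 4.15 at day 13. Adult liver lay above every other group without overlap, and day 3 lay inside the whole liver range. Its probe is at mm9 chromosome 9, bases 121824595 to 121824654.

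Akr1d1, the reductase that bends the steroid rings, was highest in adult liver and at CCl4 day 13. It stood at 4.41 and 3.01 in adult liver, 3.40 and 4.0 at CCl4 day 13, 2.36 and 2.41 at day 3, 1.39 and 2.22 in whole liver and 1.44 and 0.48 in hepatocytes, the last not detected. Adult and day 13 livers overlapped and lay above the other livers.

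Hsd3b7, the dehydrogenase of ring remodelling, varied less and was detected on all 28 arrays. Hepatocytes were highest at 4.65 and 5.15, CCl4 day 3 was the lowest liver group at 3.23 and 3.27, and adult, whole and day 13 livers lay between 3.70 and 4.28. Outside liver its group means ran from 1.15 in the DM organoid to -0.10 ± 0.17 in muscle (SD, n = 3).

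Cyp27a1 opens the alternative route and is also a mitochondrial enzyme of many tissues. It stood at 3.82 and 4.08 in adult liver, 3.68 and 3.93 at CCl4 day 13, 3.56 and 2.34 in hepatocytes, 3.00 and 2.93 in whole liver and 2.93 and 2.60 at day 3. Adult and day 13 livers overlapped, as did whole liver, hepatocytes and day 3. Brown adipose was the highest tissue outside liver at 1.34, 1.72 and 1.64, above muscle at 0.95, 0.78 and 0.58. No array of white adipose, pancreas or organoids had it above background.

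Cyp7b1, the oxysterol hydroxylase, spread most within groups. It stood at 6.57 and 7.56 in adult liver, 6.98 and 9.46 in hepatocytes, 7.16 and 7.21 in whole liver, 6.46 and 6.47 at CCl4 day 3 and 5.58 and 5.95 at day 13. The sorted duct arrays disagreed, at 2.28 and 6.16. Muscle at 2.70, 2.52 and 3.23 lay below every liver array.

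Cyp39a1, the hydroxylase of another oxysterol, was the exception to a liver pattern. It was highest in pancreas, at 3.19 and 3.10, then at CCl4 day 3 with 2.26 and 2.03 and at day 13 with 1.68 and 1.93. Hepatocytes stood at 1.08 and 1.18, whole liver at 0.80 and 0.58 and adult liver at 0.61 and 0.63, and brown adipose was lowest at -1.51, -1.65 and -1.72. These groups did not overlap in that order, except for whole and adult liver. The second probe, on the same mm9 chromosome 17, gave 3.13 and 2.96 in pancreas and the same lowest group.

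Amacr, the racemase, was the steadiest of the enzymes in liver, with all 10 liver and hepatocyte arrays between 3.31 and 3.74. Brown adipose followed at 1.91, 1.72 and 2.33, muscle stood at 0.71, 0.62 and 0.45, and the sorted duct arrays were lowest at -1.12 and -0.94.

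Baat, the conjugating enzyme, stood at 6.99 and 7.24 in adult liver, 6.44 and 7.23 in hepatocytes, 6.59 and 7.79 in whole liver, 6.27 and 6.39 at CCl4 day 3 and 6.92 and 7.0 at day 13. The day 3 arrays were the lowest of the 10 on this probe, but on the second probe they stood at 3.97 and 4.05, above hepatocytes at 3.14 and 3.43. The other 18 arrays lay between -0.62 and 0.22. Its probe is on mm9 chromosome 4, where the file lists bases 49502275 to 49502286.

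Set against unrelated tissues, the enzymes were higher in adult liver with few exceptions. A gene was called where limma gave a Benjamini-Hochberg adjusted p under 0.05 over all genes and a change of at least 2-fold. In the liver against pancreas comparison 8 of 9 were higher and 1 lower, where 12.6% of all genes were higher and 16.2% lower. Against muscle 8 of 9 were higher (15.8% of all genes), against white adipose 9 of 9 (13.3%) and against brown adipose 9 of 9 (13.2%). The members' median change was 4.20 against pancreas, 4.10 against muscle, 3.92 against white adipose and 3.59 against brown adipose, beside -0.07 for all genes in the first. These 4 comparisons share the adult liver arrays.

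Where a tissue did not rise above background the fold has only a lower bound, taken from Cy3 alone after scaling between arrays, and open to dye bias because no dyes were swapped. Where that value came out above the fold fitted to the ratios it is no bound, and only the fitted difference is given. Baat was at least 139-fold higher in adult liver than in pancreas, with fitted differences of 7.39 ± 0.27 (SE) from muscle and 7.18 ± 0.27 from white adipose on the log2 scale. Cyp7a1 was at least 31.3-fold and Cyp8b1 at least 18.6-fold higher than in pancreas, each with limma adjusted p of 2.77e-08 or less. The second probes of Baat and Cyp7a1 gave smaller log2 differences from pancreas, 5.44 ± 0.26 and 3.29 ± 0.44. The bounds for these genes therefore hold for the brighter probe only, here and below. Akr1d1, dimmer in liver, allowed at least 3.66-fold, though on Cy3 alone its difference from pancreas was 1.04 and not called (limma adjusted p = 0.124). On Agilent's own log ratio Cyp7b1 was called against none of the 4 tissues, with differences of 0.85 to 1.95 (limma adjusted p of 0.112 to 0.507).

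Cyp39a1 ran the other way in pancreas, lower in adult liver at -2.53 ± 0.18 (SE) on the log2 scale, a fold of 5.77 (limma adjusted p = 7.97e-10). It was higher in liver than in white adipose by 1.21 ± 0.17 and than in brown adipose by 2.24 ± 0.17, but on the second probe the first of these was 0.89, under 2-fold, which leaves 8 of 9 enzymes called against white adipose. Against muscle its 0.96 ± 0.17 had a limma adjusted p of 5.55e-05 but stayed under 2-fold. Of the tissues, brown adipose came nearest to liver for Amacr, with liver 1.67 ± 0.19 higher, and for Cyp27a1, with liver 2.38 ± 0.25 higher, both called.

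**Figure D2:**
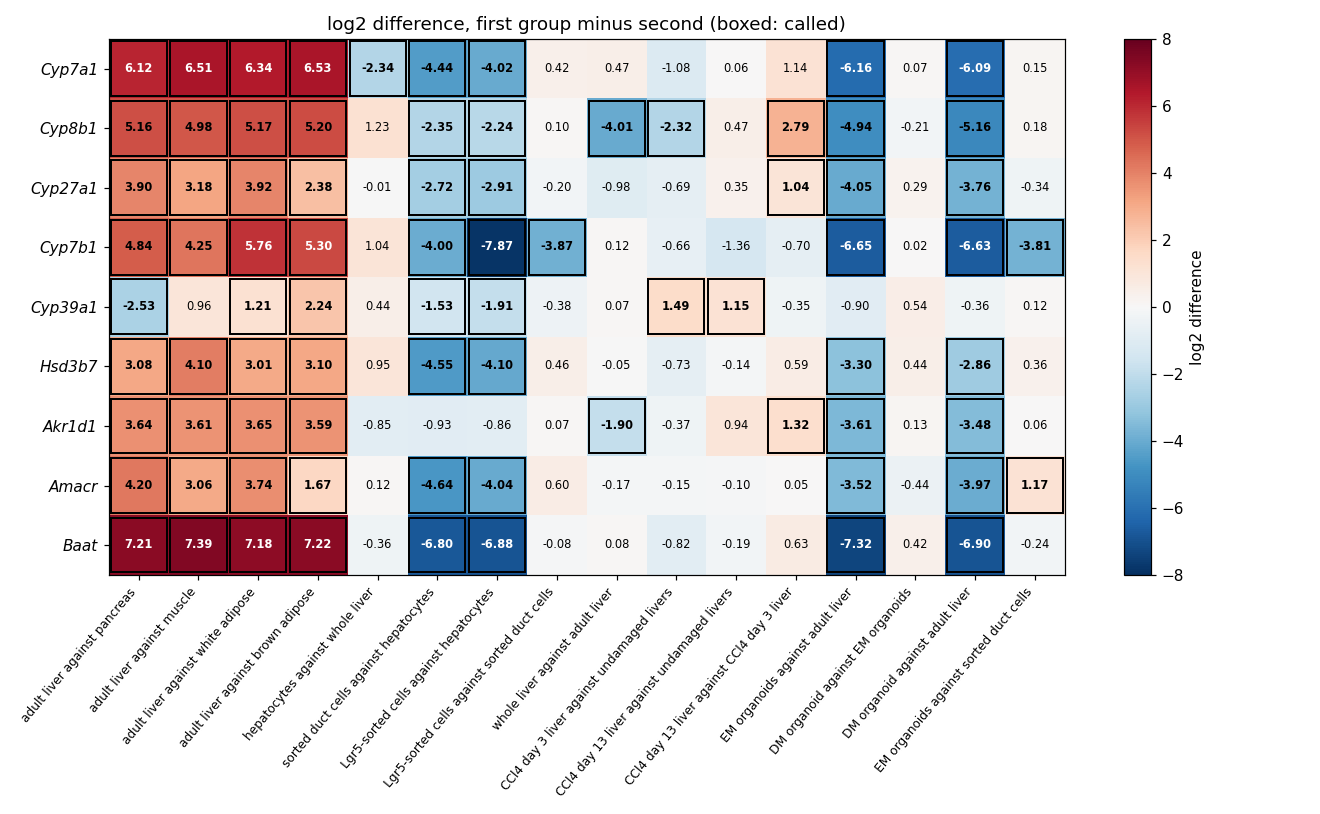
Heat map of the log2 difference of each enzyme (rows) in the 16 comparisons (columns), first group minus second, with the value printed in each cell and boxed where called (limma adjusted p under 0.05 and at least 2-fold). Adult liver is higher than the 4 other tissues for all enzymes but Cyp39a1, at -2.53 against pancreas.

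The hepatocyte fraction differed from whole liver on the same slides in 1 of 9 enzymes, called lower, where 0.38% of all genes were. Cyp7a1 was lower in the hepatocyte fraction at -2.34 ± 0.48 on the log2 scale (limma adjusted p = 0.0193), with -1.75 and -2.93 on the 2 slides. That call rests on 2 arrays: without hepatocyte array 1 the change was -1.94 (adjusted p = 0.149), and without whole liver array 2 it was -1.35 (adjusted p = 0.284). The second Cyp7a1 probe gave -0.95 (limma adjusted p = 0.452), and Agilent's own log ratio -0.60 (adjusted p = 0.892). Hsd3b7 was 0.95 ± 0.23 higher and did not pass (adjusted p = 0.0517), and Amacr differed by 0.12, with a 95% interval of -0.32 to 0.56. Whole liver array 2 is the array without Ddx3y, and its part in the result was not tested.

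Sorted duct cells had less of nearly the whole pathway than hepatocytes from the same slides, with 8 of 9 enzymes called lower where 11.4% of all genes were. In bulk samples, fewer cells of a type and less RNA per cell cannot be told apart. Baat differed by -6.80 ± 0.29 (SE), Amacr by -4.64 ± 0.21 and Hsd3b7 by -4.55 ± 0.23 on the log2 scale (limma adjusted p at most 8.56e-12). Cyp7a1 and Cyp8b1, not above background in duct cells, differed by -4.44 ± 0.48 and -2.35 ± 0.48. The second Cyp7a1 probe gave -0.94 and was not called (limma adjusted p = 0.123), and Cyp8b1 was not called in a fit of these groups alone (adjusted p = 0.103). Akr1d1 at -0.93 ± 0.35 stayed under the 2-fold limit (limma adjusted p = 0.0468). All 9 were lower on each of both slides, from -0.44 for Akr1d1 to -7.25 for Baat.

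Cyp7b1 was the loosest of these differences. On Agilent's own log ratio it was -1.39 and not called (limma adjusted p = 0.329). Its change of -4.0 ± 0.94 (limma adjusted p = 0.00212) became -2.06 (adjusted p = 0.102) without duct array 1 and -2.76 (adjusted p = 0.0661) without hepatocyte array 2. Duct array 2, which held Cyp7b1 at 6.16, had Baat, Cyp7a1 and Akr1d1 at background. Endothelial markers averaged 3.54 and 4.82 and stellate markers 1.79 and 2.17 on the 2 duct arrays. Hepatocyte markers averaged 0.79 to 1.1 on the same arrays, with 6 to 9 of 11 detected. The part of each of these marker groups in the Cyp7b1 level was not tested.

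Lgr5-sorted cells, taken after CCl4 treatment per the labels, also had 8 of 9 enzymes below hepatocytes, where 9.64% of all genes were lower. Cyp7b1 differed by -7.87 ± 0.94, Baat by -6.88 ± 0.29 and Cyp27a1 by -2.91 ± 0.27 on the log2 scale, with none of them above background in the Lgr5-sorted cells, and Cyp7a1 was at least 16-fold lower. The second probes of Cyp7a1, at -0.63 (limma adjusted p = 0.364), and Cyp39a1, at -0.89, were not called. Hsd3b7 was detected in both groups and lower at -4.10 ± 0.23, and Amacr at -4.04 ± 0.21 (limma adjusted p at most 4.23e-11). The Cyp8b1 change of -2.24 (limma adjusted p = 0.000944) was -1.20 (adjusted p = 0.0504) without hepatocyte array 1 and -1.33 (adjusted p = 0.221) on Cy3 alone. Albumin transcripts were still at 6.35 and 6.49 on the Lgr5-sorted arrays. The 11 hepatocyte markers averaged 2.01 to 2.44 there, with 7 to 8 detected. Beside the macrophage markers given above, 7 to 8 of 10 endothelial and 6 to 7 of 10 stellate and matrix markers were detected. The part of these markers' cells in the enzyme differences was not tested.

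Between the Lgr5-sorted and the duct cells 1 of 9 enzymes was called, on the lower side, where 5.43% of all genes were. Cyp7b1, not above background in Lgr5-sorted cells, differed by -3.87 ± 0.94 (limma adjusted p = 0.00648), and by -1.93 (adjusted p = 0.203) without duct array 2. Amacr was 0.60 ± 0.21 higher with a 95% interval of 0.17 to 1.04 and did not pass (limma adjusted p = 0.0542). For 3 enzymes, Cyp7a1, Cyp8b1 and Akr1d1, neither group rose above background and no fold can be given.

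The undamaged livers came in 2 sets on different slides, adult liver and whole liver, and differed in part of the pathway. Whole liver had 2 of 9 enzymes called lower, where 4.17% of all genes were. Cyp8b1 was lower at -4.01 ± 0.48 (limma adjusted p = 3.97e-05) and Akr1d1 at -1.90 ± 0.35 (adjusted p = 0.00161), although on Cy3 alone the Akr1d1 difference was 0.05. Neither was called on Agilent's own log ratio, at -2.43 (limma adjusted p = 0.168) and -1.58 (0.268), or in a fit of these groups alone (0.0545 and 0.112). Cyp27a1 was at -0.98 ± 0.27 (limma adjusted p = 0.0221), just under 2-fold. Baat, Hsd3b7, Cyp39a1 and Amacr differed by 0.17 or less. Set and slide cannot be told apart, and whole liver array 2 differs from array 1 in Ddx3y.

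The second probes of Cyp7a1 and Baat disagreed with the first in this comparison. The second Cyp7a1 probe read 3.50 and 3.28 in adult and 1.88 and 1.99 in whole liver, a difference of -1.45 ± 0.44 (limma adjusted p = 0.0352), while the brighter probe gave 0.47 ± 0.48. The second Baat probe read 5.21 and 5.88 against 3.29 and 4.17, a difference of -1.82 ± 0.26 (adjusted p = 0.000203), while the brighter probe gave 0.08 ± 0.29. Over the 13 group means the probes of a gene correlated at 0.92 for Cyp7a1, 0.96 for Baat and 0.97 for Cyp39a1, as a description only. The transcript parts these probes read were not compared here.

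**Figure D3:**
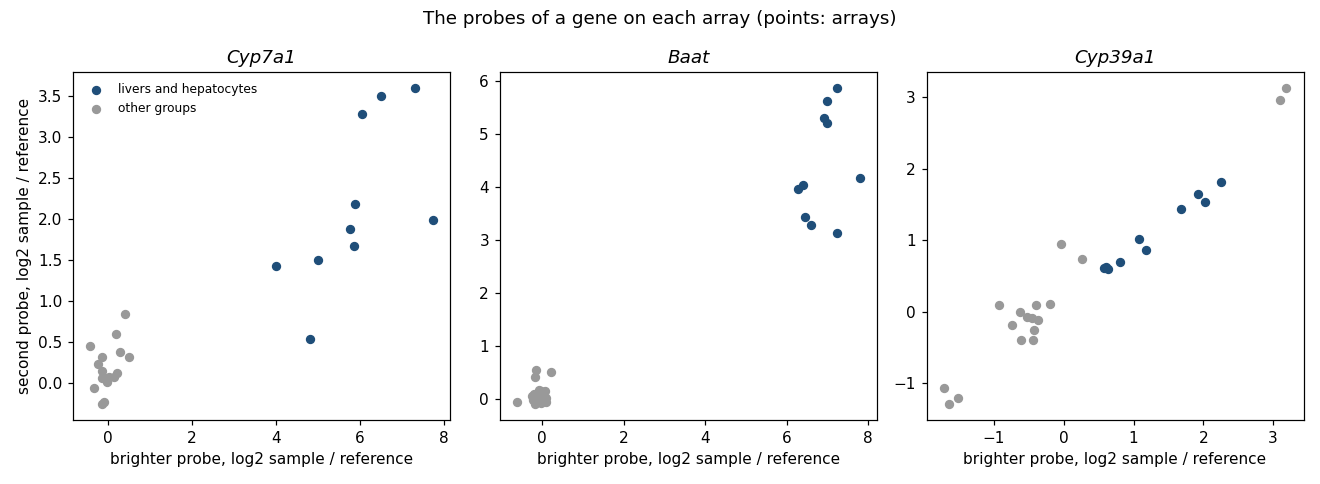
Log2 level (sample over reference) on the second probe (vertical axis) and the brighter probe (horizontal axis) of Cyp7a1, Baat and Cyp39a1, each point an array, coloured for livers and hepatocytes or other groups; the axes have their own scales. The correlations over the 13 group means are 0.92, 0.96 and 0.97. Every liver and hepatocyte array lies above all others on both probes of Baat and on the brighter probe of Cyp7a1.

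CCl4 kills hepatocytes around the central vein, and the liver then regrows. At day 3, 2 of 9 enzymes were called against the mean of both undamaged sets, 1 lower and 1 higher, where 2.01% of all genes were lower and 4.91% higher. Cyp8b1 was lower at -2.32 ± 0.41 on the log2 scale (limma adjusted p = 0.00055) and Cyp39a1 higher by 1.49 ± 0.16 (adjusted p = 1.79e-06). On Agilent's own log ratio Cyp8b1 was -1.79 and not called (limma adjusted p = 0.139). Of the rest, Baat at -0.82 ± 0.25 (limma adjusted p = 0.0328) and Hsd3b7 at -0.73 ± 0.20 (adjusted p = 0.0162) passed the p but not the 2-fold limit. Both lay below all 4 undamaged arrays, Baat on its brighter probe only. Its second probe gave -0.63 ± 0.22 (limma adjusted p = 0.0618), with day 3 at 3.97 and 4.05 and whole liver at 3.29 and 4.17. In all 8 of 9 had negative values, with a median of -0.69 over the members beside 0.01 over all genes, and Amacr, at -0.15, turned to 0.27 on Cy3 alone.

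The choice of undamaged liver mattered for the classic route at day 3. Cyp8b1 at 0.79 and 0.87 lay far below adult liver but inside the whole liver range, where its difference was -0.32 (limma adjusted p = 0.776). Against adult liver alone Akr1d1 was lower at -1.33 (limma adjusted p = 0.0123) and Cyp27a1 at -1.18 (adjusted p = 0.00505), while against whole liver alone Akr1d1 was 0.58 higher. Cyp7a1 was at -1.08 ± 0.41 and did not pass (limma adjusted p = 0.088), but passed without whole liver array 1, at -1.57 (adjusted p = 0.0038). The Cyp39a1 rise was seen against both sets: day 3 arrays were above all undamaged arrays, and the second probe rose by 1.04 ± 0.20 (limma adjusted p = 0.00101). The CCl4 arrays shared a slide and a scan day that held no undamaged liver. CCl4 and slide therefore cannot be told apart in any comparison with undamaged liver.

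Other genes moved at day 3 as well. Of 12 pericentral genes 7 were lower, with a median of -1.97, and of 11 periportal genes 2 were higher. All 8 proliferation genes and 6 of 10 stellate and matrix genes were higher, while 0 of 11 hepatocyte markers were called by limma (2 at an unadjusted p under 0.05) and their median was -0.55. The part of these shifts in the enzymes' values was not tested.

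By day 13, 1 of 9 enzymes was higher than in undamaged liver, where 0.905% of all genes were. Cyp39a1 was still higher, by 1.15 ± 0.16 (limma adjusted p = 0.000565), and by 0.91 ± 0.20 on the second probe (adjusted p = 0.0166), where the change was under 2-fold. On Agilent's own log ratio it was 1.1 and not called (limma adjusted p = 0.0552). On their brighter or only probes the other enzymes had 95% intervals that included 0, except Akr1d1. It was at 0.94 with an interval of 0.32 to 1.57 (limma adjusted p = 0.11). This value depended on the set, as Akr1d1 averaged 3.70 at day 13, 3.71 in adult liver and 1.81 in whole liver. The second Baat probe gave 0.82 ± 0.22 (limma adjusted p = 0.0549). Cyp7b1 was the lowest member at -1.36 ± 0.82 (adjusted p = 0.495), with both day 13 arrays below every undamaged array. Cyp8b1 again depended on the set, at -1.53 against adult liver and 2.48 against whole liver (limma adjusted p = 0.00324 in the latter). Ddx3y was not detected on the day 13 arrays but was on the adult liver arrays and whole liver array 1. At an unadjusted limma p under 0.05, 4 of 8 female-biased genes were higher and 4 of 7 male-biased genes lower. The part of sex-linked differences was not tested, and CCl4 and slide cannot be told apart here either.

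Day 13 and day 3 livers shared a slide and a scan day, so neither differs between the times. Of the 9 enzymes 3 rose from day 3 to day 13, where 2.13% of all genes did. Cyp8b1 rose by 2.79 ± 0.48 (limma adjusted p = 0.000541), Akr1d1 by 1.32 ± 0.35 (adjusted p = 0.0187) and Cyp27a1 by 1.04 ± 0.27 (adjusted p = 0.0178). The day 13 arrays did not overlap the day 3 arrays for 7 of 9 enzymes, these 3 among them, so a lack of overlap did not set the 3 apart. The share of all genes without overlap is not given here. The members' median change was 0.63, and 7 of 9 were positive. Cyp7a1 at 1.14 ± 0.48 (limma adjusted p = 0.183), Baat at 0.63 ± 0.29 (0.253) and Hsd3b7 at 0.59 ± 0.23 (0.14) did not pass, although the second Baat probe rose by 1.46 ± 0.26 (adjusted p = 0.000776). Amacr differed by 0.05, with a 95% interval of -0.39 to 0.49.

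The Cyp8b1 call held on leaving out each of the 4 arrays in turn, but on Agilent's own log ratio the rise was 1.91 (limma adjusted p = 0.317), and neither of the other rises was called on that ratio. Cyp27a1 was not called without day 13 array 1 (limma adjusted p = 0.055), day 13 array 2 (0.18) or day 3 array 2 (0.203). Akr1d1 was not called without day 13 array 2 (limma adjusted p = 0.254), day 3 array 1 (0.122) or day 3 array 2 (0.104). The pericentral list rose over the same interval, 7 of 12 higher with a median of 1.79. The female-biased list had 5 of 8 higher and the male-biased list 1 higher and 2 lower of 7, with Ddx3y detected on the day 3 arrays only. The part of these lists, of sex-linked differences and of the muscle markers on day 13 array 1 was not tested.

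**Figure D4:**
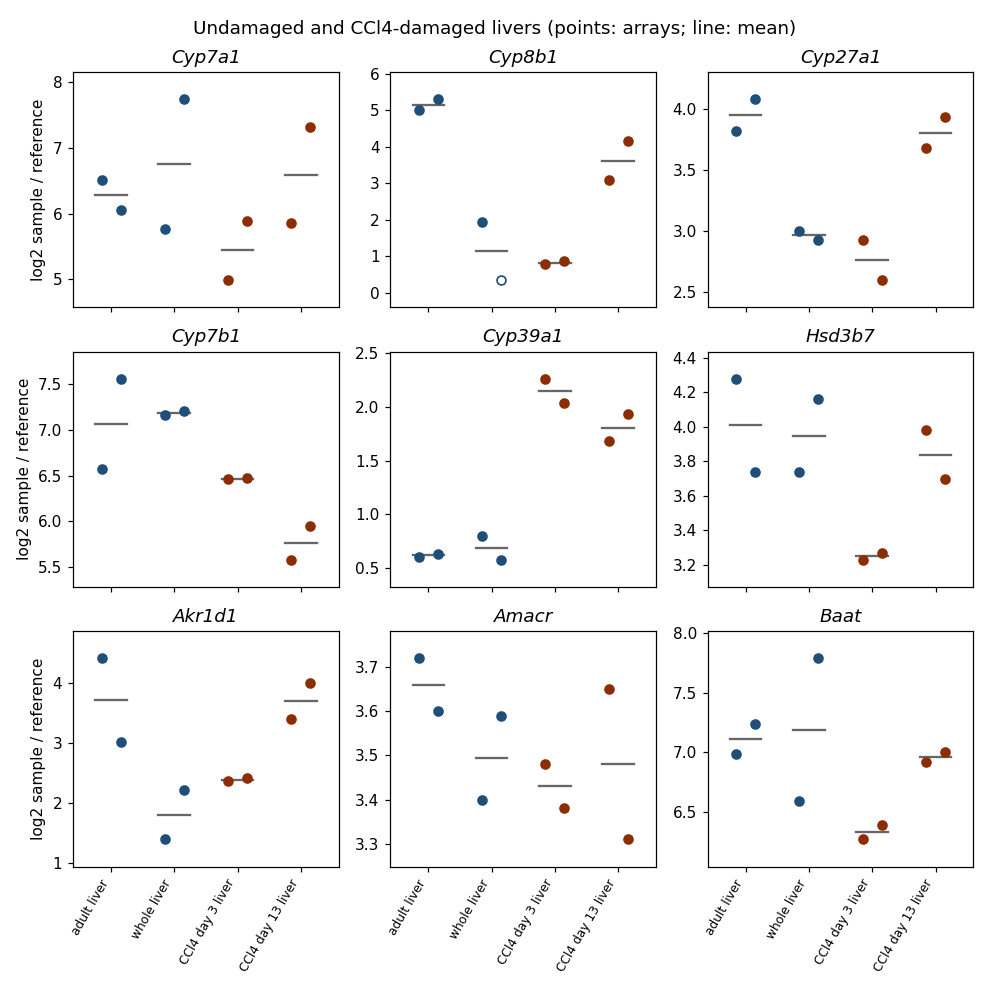
Log2 level of each enzyme on the undamaged (adult and whole liver), CCl4 day 3 and CCl4 day 13 arrays, each point an array. Cyp8b1 sits at 0.79 and 0.87 at day 3 and at 3.09 and 4.15 at day 13, and Cyp39a1 at both times lies above all undamaged arrays.

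Organoids in expansion medium had only 3 of the enzymes above background. EM array 2 detected 31.4% of probes beside 53.8% on EM array 1, so dim transcripts could be missed there. Against adult liver 8 of 9 were called lower, where 17.5% of all genes were, with a median of -4.05. Baat was at least 135-fold, Cyp7a1 at least 31.9-fold, Cyp8b1 at least 16.8-fold and Akr1d1 at least 4.52-fold lower. On the second probes Baat differed by -5.31 and Cyp7a1 by -3.10 on the log2 scale, smaller changes than those bounds. Cyp7b1 and Cyp27a1, also not above background in the organoids, differed by -6.65 ± 0.94 and -4.05 ± 0.27 on the log2 scale. Hsd3b7, at 0.86 and 0.55 in the organoids, was lower at -3.30 ± 0.23 (limma adjusted p = 4.25e-10), and Amacr, at 0.17 and 0.11, at -3.52 ± 0.21 (adjusted p = 4.8e-11). Cyp39a1, at -0.52 and -0.04, differed by -0.90 ± 0.18 (limma adjusted p = 0.000391), under 2-fold, and its second probe by -0.18 (adjusted p = 0.551). Set against whole liver, the Cyp8b1 difference was -0.93 (limma adjusted p = 0.122). All 11 hepatocyte markers were lower and 9 of 12 bile duct markers higher in these organoids. On the scan day that held an array of each group, all 9 enzymes were lower in the organoid, from -1.13 for Cyp39a1 to -7.22 for Baat.

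In differentiation medium 0 of 9 enzymes were called against expansion medium, where 10.2% of all genes were called. At an unadjusted limma p under 0.05 there was 1 of 9, Cyp39a1, with a change of 0.54 ± 0.22 (adjusted p = 0.131). Hsd3b7 stood at 1.15 in the DM organoid, 0.44 ± 0.28 higher with a 95% interval of -0.15 to 1.03, and Amacr at -0.31, a difference of -0.44 ± 0.26 with an interval of -0.98 to 0.09. The other 6 were not above background in either medium. With a single DM array the spread was taken from the other groups.

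Against adult liver the DM organoid had 8 of 9 enzymes lower, where 14.4% of all genes were. Baat was at least 71.3-fold and Cyp7a1 at least 16.9-fold lower, and Cyp7b1 and Cyp27a1 differed by -6.63 ± 1.15 and -3.76 ± 0.33 on the log2 scale. On the second probes Baat differed by -5.05 and Cyp7a1 by -2.78, smaller changes than those bounds. Cyp8b1 was at least 9.54-fold lower, but against whole liver its difference was -1.15 (limma adjusted p = 0.139). Hsd3b7 was lower at -2.86 ± 0.28 and Amacr at -3.97 ± 0.26 (limma adjusted p at most 1.02e-07). Cyp39a1 differed by -0.36 ± 0.22 (adjusted p = 0.233), and by 0.12 on the second probe. Hepatocyte markers averaged 0.27 and 0.13 on the EM arrays and 0.99 on the DM array, the last with 3 of 11 detected.

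Beside freshly sorted duct cells, the EM organoids had 1 enzyme higher and 1 lower, where 12.3% and 14.1% of all genes were. Amacr was higher by 1.17 ± 0.21 (limma adjusted p = 0.00016). Cyp7b1, not above background in the organoids, differed by -3.81 ± 0.94 (limma adjusted p = 0.00283), and by -1.87 (adjusted p = 0.128) without duct array 2.

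The other genes of the pathway give the surroundings of these values. A list of 17 further enzymes covered the peroxisomal side chain enzymes, acyl-CoA synthetases and carriers of electrons, and a list of 18 regulators, 17 of them tested, covered nuclear receptors, liver transcription factors and the Fgfr4 and Klb receptor pair. Against pancreas 15 enzymes were higher and 1 lower with a median of 2.70, led by Akr1c6 at 10.12 and Slc27a2 at 7.61. Of the regulators 11 were higher and 1 lower, led by Nr1i2 at 5.34 and Hnf4a at 5.31. Duct cells had 15 of 17 enzymes and 13 of 17 regulators below hepatocytes, with medians of -3.34 and -2.25. Ch25h, a cholesterol hydroxylase that makes an oxysterol, was 6.09 higher in duct cells.

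**Figure D5:**
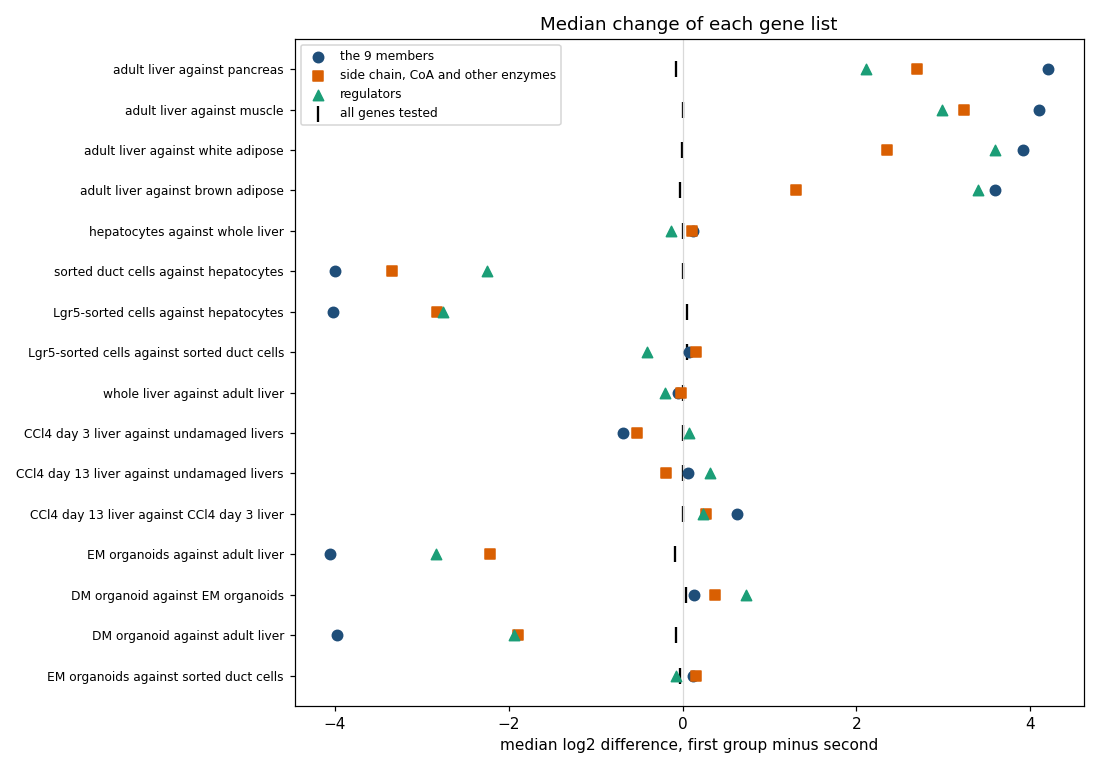
Median log2 difference, first group minus second, of the 9 enzymes, the 17 further enzymes, the regulators and all genes tested in each comparison. In the EM organoids against adult liver the medians are -4.05, -2.21 and -2.84 for the 3 lists.

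Between the undamaged sets 0 of 17 further enzymes were called by limma (4 at an unadjusted p under 0.05), and 5 of 17 regulators were lower in whole liver: Nr1i2 at -2.55, Nr0b2 at -2.11, Nr5a2 at -1.67, Hnf4a at -1.53 and Prox1 at -1.32. These 5 include Hnf4a and Nr5a2, whose motifs were found in the Cyp8b1 promoter, and Nr0b2, through which bile acids repress Cyp8b1. Cyp8b1 was itself lower there, while Cyp7a1 was at 0.47 ± 0.48 on its brighter probe and -1.45 ± 0.44 on the second. No test linked these values. At CCl4 day 3 limma called 0 of 17 regulators (4 at an unadjusted p under 0.05), and of the enzymes Ch25h rose by 1.62 and Scp2, a sterol carrier thiolase, fell by 1.4. At day 13 limma called 0 of 17 in either list (3 enzymes and 4 regulators at an unadjusted p under 0.05).

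The EM organoids had 16 of 17 further enzymes lower than adult liver with a median of -2.21, led by Akr1c6 at -10.44, and Ch25h higher by 2.19. Of the regulators 12 were lower and 1 higher, with Nr1h4, the bile acid receptor, at -6.14. In differentiation medium 4 of 17 regulators were higher than in expansion medium: Nr1h4 by 3.90, Nr1i2 by 1.46, Hnf4a by 1.16 and Mafg by 1.02. Por, which supplies electrons to the cytochromes, was higher by 1.67 and Acot8 by 1.14, while Ch25h was lower at -2.26. 

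Among the members, group means over the 13 groups correlated at 0.70 to 0.99 (Pearson) in all pairs without Cyp39a1, highest for Cyp7a1 with Baat, and at 0.33 to 0.51 in pairs with it. These are descriptions over 13 points that share the reference RNA and the contrast of liver with other tissues. The genes whose 13 means were most like those of Baat were Tdo2 (0.999), Ces1b (0.998) and Acsm1 (0.998), and for Cyp7a1 Nr1i3 (0.996), Cyp3a16 (0.988) and Otc (0.988). Hsd3b7 came nearest to G6pc (0.983) and Slc35d2 (0.983), and Amacr to Aldh4a1 (0.986), Slc27a2 (0.979) and Acbd5 (0.976). Cyp27a1 was nearest to Cyp4a14 (0.974), Ttpa (0.974) and Acot12 (0.973), and Akr1d1 to D130043K22Rik (0.987), Abcc6 (0.979) and Aspdh (0.979).

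The remaining members had looser neighbours. Cyp7b1 was nearest to Abat (0.961), Gckr (0.952) and Adra1b (0.948), and Cyp8b1 to Gngt1 (0.956), Adh6-ps1 (0.949) and Olfr1346 (0.947). Cyp39a1, with its pancreas maximum, was nearest to H13 (0.948), Dnajc3 (0.938) and Bud23 (0.934).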

How the data were processed

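RNA of 28 samples was measured on dual-colour Agilent arrays of 45018 spots, 1639 of them controls. The deposited scanner files hold, per the file headers, median spot and background intensity in Cy3 and Cy5 and a log10 ratio of Cy5 over Cy3, made with Agilent Feature Extraction 10.5.1.1 (8.5.1.1 per the submitters' processing notes). The deposited table of the series repeats that log10 ratio. Intensities were corrected with normexp (offset 50) and normalized by loess within arrays in limma 3.58.1 (R 4.3.3, with version 1.17.8 of the data.table package). Spots marked as outliers (0.495%) were left out, spots of a probe averaged, and ratios turned to log2 of Cy3 over Cy5. Probes detected on at least 2 arrays were kept, and the brightest of a gene stood for it: 31081 probes and 21331 genes, of which 16579 matched RefSeq names. Group means over all 28 arrays were fitted with lmFit and eBayes (two-sided, Benjamini-Hochberg over all genes, 15 residual degrees of freedom), and 16 contrasts drawn; calls needed an adjusted p under 0.05 and a log2 change of at least 1. The fit was tested on simulated data. Array number limits the precision.

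Members and lists were chosen with earlier results of these data known. Genes named are the members, the 3 nearest by correlation of group means (1 of them is not reported here), the called list genes with the largest changes, and context genes; others of at most 5 called regulators were named after their values were seen. Replicate numbers of hepatocytes, whole liver, duct and Lgr5-sorted cells share slides; deviations of same-numbered arrays correlated at 0.05 to 0.44 among these groups, and at -0.11 between the CCl4 times. Numbers come from the labels, which state no pairing. Alternatives covered background correction, normalization, filters, probes, slide, scan day and replicate blocks, thresholds, the undamaged set and leaving out each array.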

Additional observations from a re-analysis of the deposited data

Results flagged for a closer look

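Between day 3 and day 13 after CCl4, 3 enzymes differed in level, by a limma contrast of the 2 times themselves. Cyp8b1 rose by 2.79, Akr1d1 by 1.32 and Cyp27a1 by 1.04 on the log2 scale. None of the 3 was called on Agilent's own log ratio. The Akr1d1 and Cyp27a1 calls were lost on leaving out some single arrays, with changes of 1.02 to 1.62 and 0.87 to 1.2. The day 13 arrays lacked Ddx3y and the day 3 arrays held it, and its part in these values was not tested.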

How the results depend on the processing

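Of 298 recounts of called enzymes under other settings, 253 stayed within 1.5 times the count given, and of 2390 values of single enzymes 2210 kept their direction and call, 67 lost the call, 43 gained it and 70 turned sign. Of the 70, 68 started under 1 in size and 1 was called as given. With the replicate number as a block, which leaves out the lone DM array, no call changed: hepatocytes against whole liver kept 1 enzyme and day 13 against day 3 kept 3. Crossing the pairing of the CCl4 arrays gave 3 enzymes and 1187 genes, beside 1178 paired by number and 1205 unpaired. Blocks for slide or scan day left every count unchanged. No slide or scan day held both CCl4 and undamaged livers, so a block cannot separate CCl4 from slide there.

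For hepatocytes against whole liver (1 called) the count was 0 with Agilent's log ratio, Cy3 alone, quantile normalization, no background subtraction, the mean of probes, the other probe, only the groups compared and a test against the 2-fold limit (treat), with 3, 3, 4, 5, 4, 4, 3 and 1 enzymes at an unadjusted p under 0.05, and 0 to 2 on leaving out arrays. For Lgr5-sorted against duct cells (1) it was 3 with Agilent's ratio, 2 with quantile, 0 with only the groups compared or treat, and 0 to 1 on leaving out arrays. For whole against adult liver (2) it was 0 with Agilent's ratio or only the groups compared, 4 on Cy3 alone, 1 with quantile or treat and 4 with the other probe. For day 3 against undamaged liver (2) it was 1 with Agilent's ratio, 5 on Cy3 alone, 4 on adjusted p alone, 0 with treat, 4 against adult and 1 against whole liver, and 2 to 4 on leaving out arrays. For day 13 against undamaged liver (1) it was 0 with Agilent's ratio, quantile, the other probe or treat, 2 on Cy3 alone, 3 against whole liver, and 1 to 2 on leaving out arrays. For day 13 against day 3 (3) it was 0 with Agilent's ratio or treat, 1 with quantile, and 1 to 3 on leaving out arrays. For EM organoids against duct cells (2) it was 7 on Cy3 alone, 1 with only the groups compared or treat, and 1 to 2 on leaving out arrays. The cause of these changes was not tested.

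Signs turned as follows on the log2 scale. Hepatocytes against whole liver: Cyp27a1 0.58 and Amacr -0.18 on Cy3 alone, Cyp27a1 0.16 with no background subtraction and 0.03 with quantile. Lgr5-sorted against duct cells: Cyp27a1 0.49, Baat 0.70, Hsd3b7 -0.74 and Amacr -0.44 on Cy3 alone, Baat 0.01 with the mean of probes, and Cyp39a1 0.30 and Baat 0.09 with the other probe. Whole against adult liver: Cyp27a1 0.83 and Hsd3b7 0.09 with Agilent's ratio, Cyp7b1 -0.69, Cyp39a1 -0.18, Baat -0.05 and Akr1d1 0.05 on Cy3 alone, Cyp7b1 -0.25 and Baat -0.22 with no subtraction, Cyp7a1 -0.49 and Baat -0.87 with the mean of probes, Cyp7a1 -1.45 and Baat -1.82 with the other probe, and Cyp7b1 -0.10, Baat -0.31, Hsd3b7 0.40 and Amacr 0.39 with quantile. Day 3 against undamaged liver: Amacr 0.27 on Cy3 alone and Akr1d1 0.58 against whole liver. Day 13 against undamaged liver: Cyp7a1 -0.39, Cyp27a1 -0.54 and Amacr 0.02 with Agilent's ratio, Cyp7a1 -0.23, Cyp8b1 -0.30, Hsd3b7 0.53 and Amacr 0.33 on Cy3 alone, Cyp8b1 -1.53, Cyp27a1 -0.14 and Akr1d1 -0.01 against adult liver, Cyp7a1 -0.17 against whole liver, Baat 0.32 with the mean of probes, and Cyp7a1 -0.03 and Baat 0.82 with the other probe. Day 13 against day 3: Cyp7b1 0.62 with Agilent's ratio and Amacr -0.27 with quantile. DM organoid against adult liver: Cyp39a1 0.12 with the other probe. EM organoids against duct cells: Baat 0.02 and 0.28 with the mean of probes and the other probe, and Hsd3b7 -0.02 with quantile.

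Leaving out an array in turn moved the sign of small values, with these ranges. In CCl4 day 13 liver against CCl4 day 3 liver it was Amacr -0.12 to 0.22. In CCl4 day 13 liver against undamaged livers they were Cyp7a1 -0.67 to 0.79, Cyp8b1 -0.06 to 1.00, Amacr -0.26 to 0.07 and Baat -0.49 to 0.11. In hepatocytes against whole liver they were Baat -0.95 to 0.24, Cyp27a1 -0.62 to 0.60 and Cyp7b1 -0.20 to 2.28. In whole liver against adult liver they were Cyp39a1 -0.04 to 0.19, Hsd3b7 -0.32 to 0.22, Cyp7a1 -0.52 to 1.45, Baat -0.52 to 0.68 and Cyp7b1 -0.37 to 0.61. In Lgr5-sorted cells against sorted duct cells it was Cyp27a1 -0.41 to 0.02. In EM organoids against sorted duct cells it was Cyp39a1 -0.12 to 0.36.

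On Cy3 alone the median of all genes moved to -0.75 against pancreas, 0.62 in whole against adult liver and -0.95 in EM organoids against duct cells, so changes there are read against that median. Of 5114 genes called in whole against adult liver 4079 were then higher, beside 497 of 1387 as given, and counts over all genes moved from 1387 to 254 with Agilent's ratio. Few arrays a group and dim probes (Cyp8b1, Akr1d1) limit what differences could be detected.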
